A study of Oryza sativa with 8 samples.

Results

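The chlorophyll synthesis enzymes of rice were followed through 9 loci, all 9 of which were measured, out of 52795 loci on the array. They were chosen by locus identifier, as the spots whose probe name carries the locus of CHLH, CHLD, CHLI, CHLM, DVR, PORA, PORB, YGL1 or CAO1, and 12 probes reported them. The first digits of the identifiers place CHLH (LOC_Os03g20700), CHLD (LOC_Os03g59640), CHLI (LOC_Os03g36540) and DVR (LOC_Os03g22780) on chromosome 3, PORA (LOC_Os04g58200) on chromosome 4, YGL1 (LOC_Os05g28200) on chromosome 5 and CHLM (LOC_Os06g04150) on chromosome 6. PORB (LOC_Os10g35370) and CAO1 (LOC_Os10g41780) are on chromosome 10. The RefSeq gene table listed 8 of the 9 symbols, or a synonym, on the chromosome that the identifier gives. CHLM was the exception, so its name rests on general knowledge.

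RNA of whole 14-day-old seedlings was hybridised to custom one-colour arrays that carry probes for rice transcript models. The 4 groups were Nipponbare, a japonica line, and Pokkali, an indica line, each before treatment (0 h) and 8 h into a treatment with 250 mM NaCl. Every group held 2 biological replicates with an array each, which makes 8 arrays. All plants grew in a greenhouse under natural light and temperature, and no allele or transgene is named for either line. No group was kept for 8 h without salt, so salt and the hours that passed between the collections cannot be told apart. Whole seedlings hold leaf, stem and root together, and in such a sample fewer cells of a type cannot be told apart from less RNA per cell.

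Chlorophyll shares its first steps with haem: a common trunk makes protoporphyrin IX, and the insertion of magnesium commits it to chlorophyll. Magnesium chelatase, made of the subunits CHLH, CHLD and CHLI, does this, CHLM methylates the product, and after a ring closure the divinyl reductase DVR and the light-dependent protochlorophyllide oxidoreductases PORA and PORB produce chlorophyllide. The chlorophyll synthase YGL1 attaches the phytol tail, and the chlorophyllide a oxygenase CAO1 turns the a form into the b form. Free intermediates of the pathway are phototoxic, and plants regulate many of its genes by light.

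Levels are given as log2 processed intensity less the 75th percentile of the array, so 0 stands for that percentile. A level of 1 locus is compared between arrays and not with the level of another locus, since probes bind with different strength. Between 81.0% and 85.5% of non-control spots lay well above background on an array, and that percentile lay between 674 and 950 intensity units. Loci were tested with limma across all 45412 kept loci, and those under 0.05 after Benjamini-Hochberg adjustment are said to have passed. All arrays shared 1 slide, on which the lines lay in different rows and the times in different columns, so array position and group cannot be told apart.

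From 0 h to 8 h in salt, 7 of the 9 enzymes of chlorophyll synthesis fell in Nipponbare and 7 of 9 fell in Pokkali, against a background of 12.3% of all loci called lower in Nipponbare and 12% in Pokkali. Because the 9 were chosen with earlier results of these data known, the distance from this background is a description only. The same 7 passed in both lines, where 8.35% of all loci passed as lower in both. They were the chelatase subunits CHLH, CHLD and CHLI, the methyltransferase CHLM, the reductase DVR and the oxidoreductases PORA and PORB, with falls of 2.48-fold (CHLI) to 35.1-fold (PORA) in Nipponbare and 2.75-fold (DVR) to 14.3-fold (PORA) in Pokkali. The chlorophyll synthase YGL1 and the oxygenase CAO1 did not pass in either line. The median log2 change of the 9 was -1.90 in Nipponbare and -1.62 in Pokkali, beside 0.05 and 0.08 over all loci. Both 8 h arrays lay below both 0 h arrays for 8 of the 9 enzymes in Nipponbare and 7 in Pokkali, beside 31.6% and 29.6% of all loci. All 4 of the 8 h arrays lay below all 4 of the 0 h arrays for 7 of the 9 enzymes, which held for 14.1% of all loci.

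**Figure D1:**
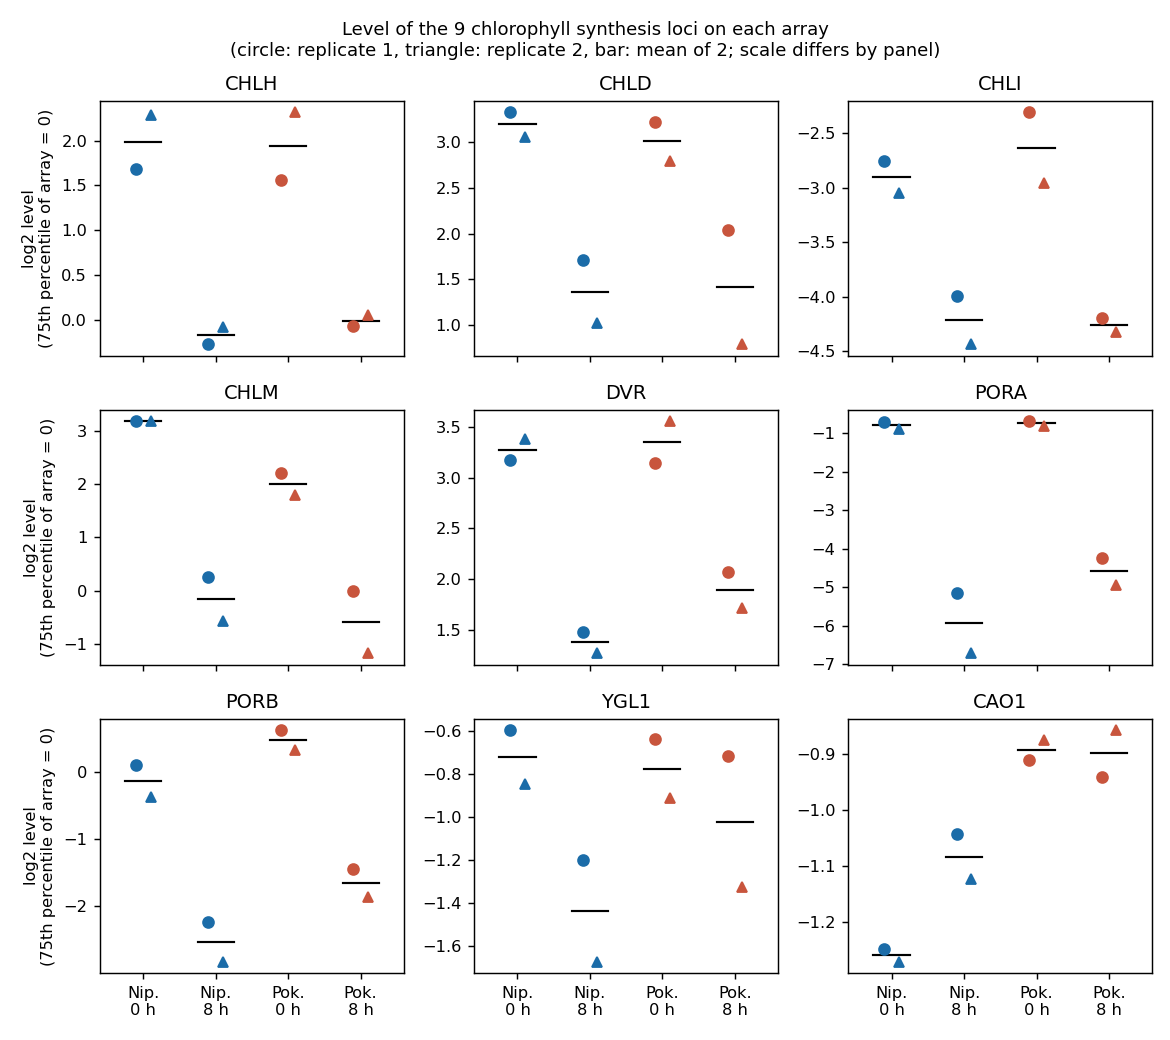
Each panel shows 1 enzyme, with its log2 level relative to the 75th percentile of the array (y axis, a separate scale per panel) in Nipponbare and Pokkali at 0 h and 8 h (x axis). Circles are replicate 1, triangles replicate 2 and bars the mean of 2 arrays. In 7 panels all 8 h points sit below all 0 h points, while the YGL1 arrays of Pokkali overlap between times and the CAO1 panel spans only -1.27 to -0.86.

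Magnesium chelatase opens the chlorophyll branch, and all 3 of its subunits fell. The level of CHLH, the large subunit that binds porphyrin, was 1.68 and 2.29 in Nipponbare at 0 h and -0.27 and -0.08 at 8 h, and in Pokkali it was 1.57 and 2.32 at 0 h and -0.07 and 0.06 at 8 h. The 4 salt-treated arrays stood close together and far below the untreated ones, which were wider apart. The log2 change was -2.16 ± 0.31 (SE, 2 arrays per group; limma adjusted p = 0.00530) in Nipponbare, a 4.47-fold fall, and -1.95 ± 0.31 (limma adjusted p = 0.00724) in Pokkali, a 3.86-fold fall. CHLH was reported by 2 probes, which changed by -2.17 and -2.15 in Nipponbare and by -1.91 and -1.98 in Pokkali on the log2 scale.

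CHLD, the subunit that joins the motor of the chelatase to its catalytic part, stood at 3.33 and 3.06 in Nipponbare at 0 h and at 1.71 and 1.02 at 8 h. In Pokkali its levels were 3.22 and 2.80 at 0 h and 2.04 and 0.79 at 8 h. Treated arrays were below untreated ones in both lines, and the Pokkali replicates at 8 h were further apart than any other CHLD pair. Its log2 change was -1.84 ± 0.44 (SE; limma adjusted p = 0.0275), a 3.57-fold fall, in Nipponbare and -1.60 ± 0.44 (limma adjusted p = 0.0414), a 3.02-fold fall, in Pokkali. These 2 calls ended when single arrays were left out, which also leaves fewer arrays to estimate the spread. Without any 1 of the Nipponbare arrays, the log2 change in Pokkali stayed at -1.60. The limma adjusted p in Nipponbare was 0.0904 and 0.0838 without the first or second 0 h array and 0.0539 and 0.150 without the first or second 8 h array; in Pokkali, the log2 change was -0.97 (adjusted p = 0.156) without the second 8 h array and -2.22 (adjusted p = 0.0229) without the first, and the call also ended without either Pokkali 0 h array (0.137 and 0.0897) and without any 1 of the Nipponbare arrays (0.0564 to 0.0596).

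CHLI, the ATPase subunit, was dim, with 28.4 to 172 intensity units over its 2 probes, but was well above background on all 8 arrays. Its levels were -2.76 and -3.05 in Nipponbare at 0 h and -3.99 and -4.43 at 8 h, and those of Pokkali were -2.31 and -2.96 at 0 h and -4.20 and -4.32 at 8 h. All treated arrays were lower than all untreated arrays. The log2 change was -1.31 ± 0.27 (SE; limma adjusted p = 0.0167) in Nipponbare, a 2.48-fold fall, and -1.62 ± 0.27 (limma adjusted p = 0.00854) in Pokkali, a 3.08-fold fall. The Nipponbare call ended without its first or second 0 h array (limma adjusted p = 0.0637 and 0.0504) or its second 8 h array (0.103), and the Pokkali call without its second 8 h array (0.0576). With the normexp background correction, which adds an offset that compresses dim signals, the log2 changes were -0.57 and -0.76, both past the threshold. The 95% intervals of the 3 subunits overlapped in each line, from -2.91 to -0.66 over the 3 in Nipponbare and from -2.69 to -0.53 in Pokkali, and the subunits were not tested against each other.

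CHLM, the methyltransferase that takes over the product of the chelatase, had the second most negative log2 change of the 9 in both lines with processed signals. It read 3.17 and 3.17 in Nipponbare at 0 h, 0.24 and -0.57 at 8 h, 2.21 and 1.78 in Pokkali at 0 h, and 0.00 and -1.17 at 8 h. Both lines had lower arrays at 8 h, and the untreated Nipponbare arrays were the highest of all. The log2 change was -3.33 ± 0.44 (SE; limma adjusted p = 0.00421), a 10.1-fold fall, in Nipponbare and -2.59 ± 0.44 (limma adjusted p = 0.00883), a 6.0-fold fall, in Pokkali. Among all loci, 0.570% had a more negative change than CHLM in Nipponbare and 1.33% in Pokkali. Without the first 0 h array of both lines, the Pokkali call missed the threshold (limma adjusted p = 0.0522).

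DVR, which reduces a vinyl side group of the chlorophyll precursor, was at 3.18 and 3.38 in untreated Nipponbare and 1.48 and 1.27 after salt. Untreated Pokkali had 3.15 and 3.56 and treated Pokkali 2.07 and 1.72. The groups did not overlap between times, and at 8 h both Pokkali arrays were above both Nipponbare arrays. DVR fell by 1.90 ± 0.21 on the log2 scale (SE; limma adjusted p = 0.00292), 3.73-fold, in Nipponbare and by 1.46 ± 0.21 (limma adjusted p = 0.00594), 2.75-fold, in Pokkali. Neither call was lost under any alternative that was run.

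**Figure D2:**
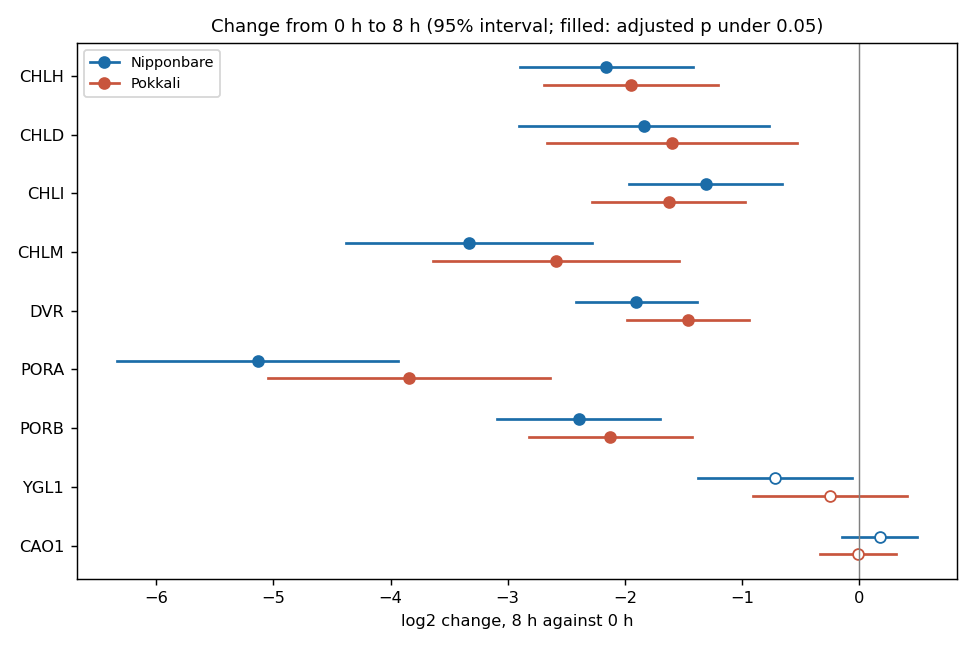
The log2 change from 0 h to 8 h (x axis) is shown for each enzyme (y axis), with Nipponbare in blue and Pokkali in red, as the limma estimate and its 95% interval; filled points passed an adjusted p under 0.05. PORA has the most negative estimate in both lines (-5.13 and -3.84), which with the normexp correction belongs to CHLM, and the intervals of CAO1 include 0 in both.

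The oxidoreductases PORA and PORB carry out the light-dependent step, in which protochlorophyllide becomes chlorophyllide; in barley and Arabidopsis, PORA is known as the form abundant in dark-grown seedlings. PORA had the most negative log2 change of the 9 in each line with processed signals; with the normexp correction CHLM did, at -3.21 in Nipponbare and -2.43 in Pokkali against -2.76 and -2.39 for PORA. Its levels were -0.70 and -0.89 in Nipponbare at 0 h and -5.16 and -6.71 at 8 h, and -0.69 and -0.80 in Pokkali at 0 h and -4.24 and -4.94 at 8 h. The 4 untreated arrays were nearly equal, whereas every treated array was far lower and the lowest was the second Nipponbare array. On that array neither PORA probe was well above background (6.76 and 7.56 intensity units, against 434 to 616 on the untreated Nipponbare arrays), so 1 of the 2 arrays of that group measured PORA.

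The log2 change of PORA was -5.13 ± 0.50 (SE; limma adjusted p = 0.00206), or 35.1-fold, in Nipponbare and -3.84 ± 0.50 (limma adjusted p = 0.00422), or 14.3-fold, in Pokkali. Without the second Nipponbare 8 h array the fall in Nipponbare was 20.5-fold (limma adjusted p = 0.00802), and without the first it was 60.2-fold (0.00445). With the normexp correction the falls were 6.79-fold and 5.23-fold, both still past the threshold, so the size of the change depends on how signals near background are treated. The 2 PORA probes changed by -4.99 and -5.28 in Nipponbare and by -3.68 and -4.00 in Pokkali. Of all loci, 0.0352% had a more negative change in Nipponbare and 0.214% in Pokkali.

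PORB, the second oxidoreductase, measured 0.11 and -0.37 in Nipponbare before treatment and -2.23 and -2.82 after it. Pokkali had 0.62 and 0.32 before and -1.45 and -1.85 after. The times did not overlap, and the Pokkali arrays were above the Nipponbare arrays at both times. PORB fell 5.26-fold in Nipponbare (log2 change -2.39 ± 0.29 SE; limma adjusted p = 0.00338) and 4.35-fold in Pokkali (-2.12 ± 0.29; limma adjusted p = 0.00471). No alternative ended either call.

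With processed signals, PORA changed more than PORB in both lines. The PORA level less the PORB level was -0.81 and -0.52 in Nipponbare at 0 h and -2.93 and -3.88 at 8 h. In Pokkali this difference of log2 levels was -1.31 and -1.12 at 0 h and -2.79 and -3.08 at 8 h. All 4 treated arrays were below all 4 untreated arrays in this difference, which was looked at after the values were seen and was not tested; the low value of -3.88 comes from the array on which PORA was not well above background. The 95% intervals of the 2 changes were apart in Nipponbare (-6.34 to -3.93 for PORA and -3.09 to -1.70 for PORB) and overlapped in Pokkali (-5.05 to -2.64 and -2.82 to -1.43). With the normexp correction the gap was smaller, with a log2 change of -2.76 for PORA and -1.99 for PORB in Nipponbare and of -2.39 and -1.87 in Pokkali.

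YGL1, the chlorophyll synthase, had levels of -0.59 and -0.84 in untreated and -1.20 and -1.67 in treated Nipponbare. In Pokkali they were -0.64 and -0.91 at 0 h and -0.72 and -1.33 at 8 h. The Nipponbare arrays were apart between times and the Pokkali arrays overlapped. The log2 change was -0.72 (95% interval -1.37 to -0.06; limma adjusted p = 0.102) in Nipponbare and -0.25 (-0.91 to 0.41; limma adjusted p = 0.537) in Pokkali. YGL1 therefore did not pass in either line, and the interval in Nipponbare holds values between almost 0 and those of the weaker falls above.

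CAO1, the oxygenase that makes the b form, stood at -1.25 and -1.27 in Nipponbare at 0 h, -1.04 and -1.12 at 8 h, -0.91 and -0.88 in Pokkali at 0 h, and -0.94 and -0.86 at 8 h. It was the enzyme with the narrowest spread over the 8 arrays. Its log2 change was 0.18 (95% interval -0.15 to 0.50; limma adjusted p = 0.374) in Nipponbare, where the value was -0.04 with unscaled signals, and -0.01 (-0.33 to 0.32; limma adjusted p = 0.975) in Pokkali. These intervals do not reach the estimate of any of the 7 enzymes that fell in the same line, although CAO1 was not tested against them.

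**Figure D3:**
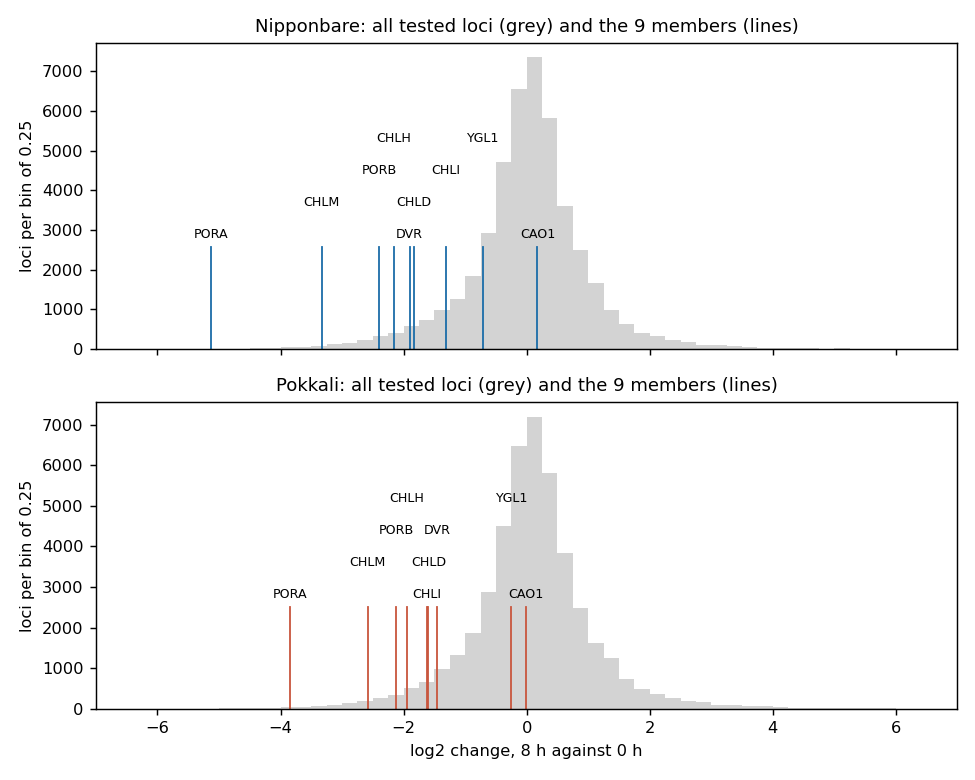
Grey bars count all 45412 tested loci by their log2 change from 0 h to 8 h (x axis, bins of 0.25), in Nipponbare above and Pokkali below, and coloured lines mark the 9 enzymes. PORA and CHLM lie in the far lower tail in both lines, while CAO1 lies near the centre, with 58.1% of loci below it in Nipponbare and 44.7% in Pokkali.

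The lines were then compared at each time, in the fit that does not use the replicate number. Calls that changed when the number was used are given with the processing. At 0 h, 0 of 9 enzymes differed between Pokkali and Nipponbare by limma, where 16.8% of all loci passed. Of all 45412 loci, 13455 had an unadjusted limma p under 0.05, and so did 2 of the 9 enzymes. These were CHLM, with a log2 difference of -1.18 (95% interval -2.23 to -0.12; limma adjusted p = 0.129), and CAO1, with 0.37 (0.04 to 0.69; limma adjusted p = 0.125). Both untreated Pokkali arrays were below both untreated Nipponbare arrays for CHLM and above them for CAO1 and PORB. Such an order was found for 24.1% of all loci downwards and 30.8% upwards. The other differences ranged from -0.19 (CHLD) to 0.60 (PORB, 95% interval -0.09 to 1.30).

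After 8 h, 0 of 9 enzymes differed between the lines by limma, where 22% of all loci passed. An unadjusted limma p under 0.05 was found for 16121 of all 45412 loci and again for 2 of the 9 enzymes. PORA was 1.34 log2 units higher in Pokkali (95% interval 0.14 to 2.55; limma adjusted p = 0.107) and PORB 0.87 units higher (0.18 to 1.57; limma adjusted p = 0.0786), and neither passed. Without the first Nipponbare 8 h array, which leaves the array on which PORA was not above background, the PORA difference was 2.12 and passed (limma adjusted p = 0.0174). Both Pokkali arrays were above both Nipponbare arrays for 5 of the 9 enzymes, namely CHLH, DVR, PORA, PORB and CAO1, which held for 39.4% of all loci. The array was designed on the IRGSP5 rice genome, and the part of sequence differences between the lines in these levels was not tested.

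**Figure D4:**
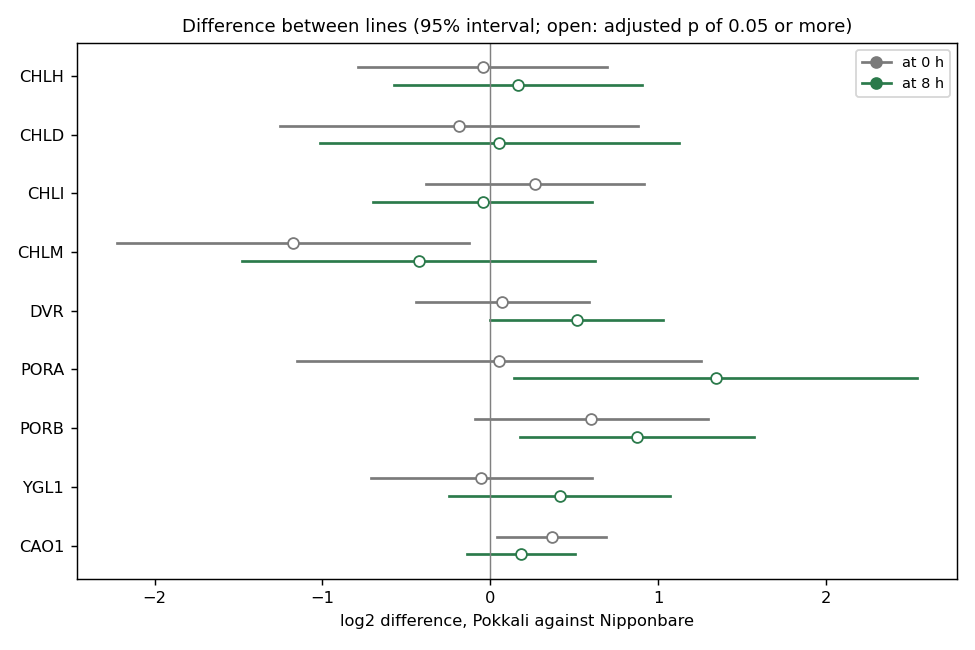
Points give the log2 difference of Pokkali against Nipponbare (x axis) for each enzyme (y axis) at 0 h (grey) and 8 h (green), with 95% intervals from limma. All points are open because none passed an adjusted p under 0.05; the intervals of CHLM and CAO1 at 0 h and of PORA and PORB at 8 h leave out 0.

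The change from 0 h to 8 h was then set against itself in the other line. Among the 9 enzymes, 0 passed for a difference in change by limma, where 0.346% of all loci passed. An unadjusted limma p under 0.05 was found for 0 of the 9 and for 4727 of all 45412 loci. PORA had the largest estimate, 1.29 log2 units in the direction of a smaller fall in Pokkali (95% interval -0.41 to 2.99; limma adjusted p = 0.634), followed by CHLM at 0.75 (-0.74 to 2.23; limma adjusted p = 0.800). CHLI was the lowest at -0.31 (-1.24 to 0.61). The fall was smaller in Pokkali for 6 of the 7 enzymes that fell in both lines and for 53.2% of the 3793 loci that fell in both. The intervals include differences of more than 1 log2 unit for 8 of the 9 enzymes, all except CAO1, so these arrays do not show that the lines responded alike.

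The rest of the tetrapyrrole pathway was described with 4 further lists of 24 measured loci, put together from general knowledge. Of these, 16 fell and 3 rose in Nipponbare, and 15 fell and 3 rose in Pokkali. Over all loci, 14% rose in Nipponbare and 15.2% in Pokkali. Names are given below for loci whose name the RefSeq table lists on the same chromosome, and others go by identifier. Every median in the next paragraphs is over all measured loci of a list, beside the all-locus medians of 0.05 and 0.08.

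The trunk from glutamate to protoporphyrin IX held 10 loci, of which 8 fell and 1 rose in each line, with a median log2 change of -1.31 in Nipponbare and -1.22 in Pokkali. HEMA1, the glutamyl-tRNA reductase at the entry to the pathway, was at 1.61 and 2.14 in Nipponbare at 0 h and -0.14 and 0.12 at 8 h, and at 2.26 and 2.48 in Pokkali at 0 h and 0.74 and 0.60 at 8 h. All treated arrays were below all untreated arrays. HEMA1 changed by -1.89 ± 0.22 (SE; limma adjusted p = 0.00318) in Nipponbare and by -1.70 ± 0.22 (limma adjusted p = 0.00420) in Pokkali. PPO1, a protoporphyrinogen oxidase, was not well above background on any 8 h array and was at least 1.46-fold lower in Nipponbare (limma adjusted p = 0.00165) and at least 1.52-fold lower in Pokkali (0.00234); these calls ended with the normexp correction (0.557 and 0.179).

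HEMB, the aminolevulinate dehydratase, was the trunk locus that rose. Its levels were 1.48 and 1.89 in Nipponbare at 0 h and 2.96 and 3.04 at 8 h, and 2.54 and 3.38 in Pokkali at 0 h and 4.57 and 4.37 at 8 h. Treated arrays were higher than untreated ones in each line, opposite to the 8 trunk loci that fell. The log2 change was 1.31 ± 0.30 (SE; limma adjusted p = 0.0227) in Nipponbare and 1.51 ± 0.30 (limma adjusted p = 0.0142) in Pokkali. The call for HEMB ended without any 1 of the 4 Nipponbare arrays (limma adjusted p = 0.0525 to 0.115) and, in Pokkali, without its first or second 8 h array (0.0715 and 0.0651).

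The count of trunk loci that fell changed when single arrays were left out. Where a call ended without an array of the other line, the log2 change of the locus stayed the same. Such a fit estimates the spread from fewer arrays. In Nipponbare it was 2 or 3 of 10 without any 1 of the 4 Nipponbare arrays and 5 without either Pokkali 0 h array. In Pokkali it was 2 or 3 of 10 without either Pokkali 0 h array or the second 8 h array, and 4 without either Nipponbare 8 h array.

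Among 6 other loci of the chlorophyll branch, 5 fell and 1 rose in Nipponbare, and 4 fell and 1 rose in Pokkali. CHLP, the geranylgeranyl reductase that supplies the phytol tail, was at 6.60 and 6.66 in Nipponbare at 0 h and 3.99 and 3.69 at 8 h, and at 6.76 and 6.93 in Pokkali at 0 h and 5.15 and 4.55 at 8 h. All 8 h arrays were lower, and those of Pokkali stayed above those of Nipponbare. CHLP changed by -2.79 ± 0.23 (SE; limma adjusted p = 0.00157) in Nipponbare and by -2.00 ± 0.23 (limma adjusted p = 0.00335) in Pokkali. At 8 h CHLP was 1.01 log2 units higher in Pokkali and passed (limma adjusted p = 0.0269). That call ended with unscaled signals (0.0743) and without the same 0 h replicate of both lines. It also ended without the first Pokkali 8 h array (difference 0.71) and without the first or second Nipponbare 8 h array (1.17 and 0.86). CHLP was not tested against the 9 enzymes, whose largest difference at 8 h was 1.34 (PORA).

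In this group LOC_Os01g17170 changed by -4.19 in Nipponbare (limma adjusted p = 0.00159) and -2.69 in Pokkali (0.00444), and LOC_Os11g16550 by -3.27 (limma adjusted p = 0.000752) and -3.55 (0.000718). These falls were of the order of those of CHLM and PORA. The locus that rose was LOC_Os10g41760. It was not well above background in untreated Nipponbare and was at least 9.68-fold higher there at 8 h (limma adjusted p = 0.0214), a call that ended without the second 0 h array (0.101), either 8 h array (0.0726 and 0.113) and with the normexp correction (0.131). In Pokkali LOC_Os10g41760 was at -4.67 and -5.18 at 0 h and at -1.93 and 0.60 at 8 h, a log2 change of 4.26 ± 0.78 (SE; limma adjusted p = 0.0115) that missed the threshold without the second 0 h array (0.0554). Without the first or second Pokkali 8 h array the change was 5.53 (limma adjusted p = 0.0114) or 3.0 (0.0269), and with the normexp correction it was 2.67 (0.0228).

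The haem and bilin branch leads away from chlorophyll, and of its 4 loci 0 fell and 1 rose in each line by limma. An unadjusted limma p under 0.05 was found for 3 of 4 in Nipponbare and 2 of 4 in Pokkali. Of all 45412 loci, 18140 had such a p in Nipponbare and 18437 in Pokkali. HO1, the haem oxygenase that opens the haem ring, read 2.51 and 2.56 in Nipponbare at 0 h and 3.20 and 3.71 at 8 h, and 2.39 and 2.55 in Pokkali at 0 h and 2.79 and 3.28 at 8 h. Arrays at 8 h were higher in both lines, and the rise passed in Nipponbare alone (log2 change 0.92 ± 0.24 SE, limma adjusted p = 0.0350; Pokkali 0.57 ± 0.24, adjusted p = 0.132), with no difference in change that passed (limma adjusted p = 0.837). The HO1 call ended without either Nipponbare 0 h array (limma adjusted p = 0.101 and 0.114), without the second Nipponbare 8 h array (0.181) and with unscaled signals (0.0528). The locus that rose in Pokkali was LOC_Os05g29760 (log2 change 0.77, limma adjusted p = 0.0234), and that call ended without any 1 of the 4 Pokkali arrays (0.0728 to 0.0966), without the second Nipponbare 8 h array (0.0503) and with unscaled signals (0.0849). In Nipponbare the log2 change of LOC_Os05g29760 was 0.51 (limma adjusted p = 0.0826), which passed with the normexp correction (0.0346). Its difference in change between lines did not pass (limma adjusted p = 0.838). LOC_Os01g72090 had a log2 change of -0.45 in Nipponbare (limma adjusted p = 0.0676) and -0.39 in Pokkali (0.0970), and in Nipponbare it passed as lower with unscaled signals (0.0459) and with the normexp correction (0.0456). The branch was not tested against the 9 enzymes.

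Of 5 loci listed as transcription factors of greening, 4 were measured, and 3 of 4 fell in each line. No locus of this list passed in Nipponbare without its first 0 h array or either 8 h array, nor in Pokkali without its first 0 h array or either 8 h array. GLK1, a GOLDEN2-like factor that activates genes of chlorophyll synthesis and light harvesting, was at -0.43 and -1.44 in Nipponbare at 0 h and -3.39 and -3.30 at 8 h, and at -0.90 and -2.13 in Pokkali at 0 h and -3.22 and -3.96 at 8 h. The 8 h arrays were below the 0 h arrays, with wide 0 h pairs in both lines. GLK1 changed by -2.41 ± 0.51 (SE; limma adjusted p = 0.0180) in Nipponbare and -2.07 ± 0.51 (limma adjusted p = 0.0283) in Pokkali. Without the first Pokkali 0 h array the Pokkali change was -1.46 (limma adjusted p = 0.0909), and the Pokkali call also ended without either Pokkali 8 h array (0.0593 and 0.149) and either Nipponbare 8 h array (0.0532 and 0.0544). Without the second Pokkali 0 h array the change was -2.69 (0.0260), and with the normexp correction it was -1.43 (0.0377) in Pokkali and -1.78 (0.0171) in Nipponbare. The Nipponbare call ended without the first Nipponbare 0 h array (0.0635) and either Nipponbare 8 h array (0.0781 and 0.0876).

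GLK2, the paralogue of GLK1, had levels of 3.13 and 2.98 in Nipponbare at 0 h and 2.54 and 2.57 at 8 h, and of 4.09 and 4.07 in Pokkali at 0 h and 3.25 and 3.44 at 8 h. The fall was small beside that of GLK1, and Pokkali stood higher at both times. The log2 change was -0.50 ± 0.15 (SE; limma adjusted p = 0.0492) in Nipponbare and -0.73 ± 0.15 (limma adjusted p = 0.0151) in Pokkali. In Nipponbare that call ended without any 1 of the 8 arrays (limma adjusted p = 0.0672 to 0.180), and in Pokkali without any 1 of the 4 Pokkali arrays (0.0501 to 0.0750).

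**Figure D5:**
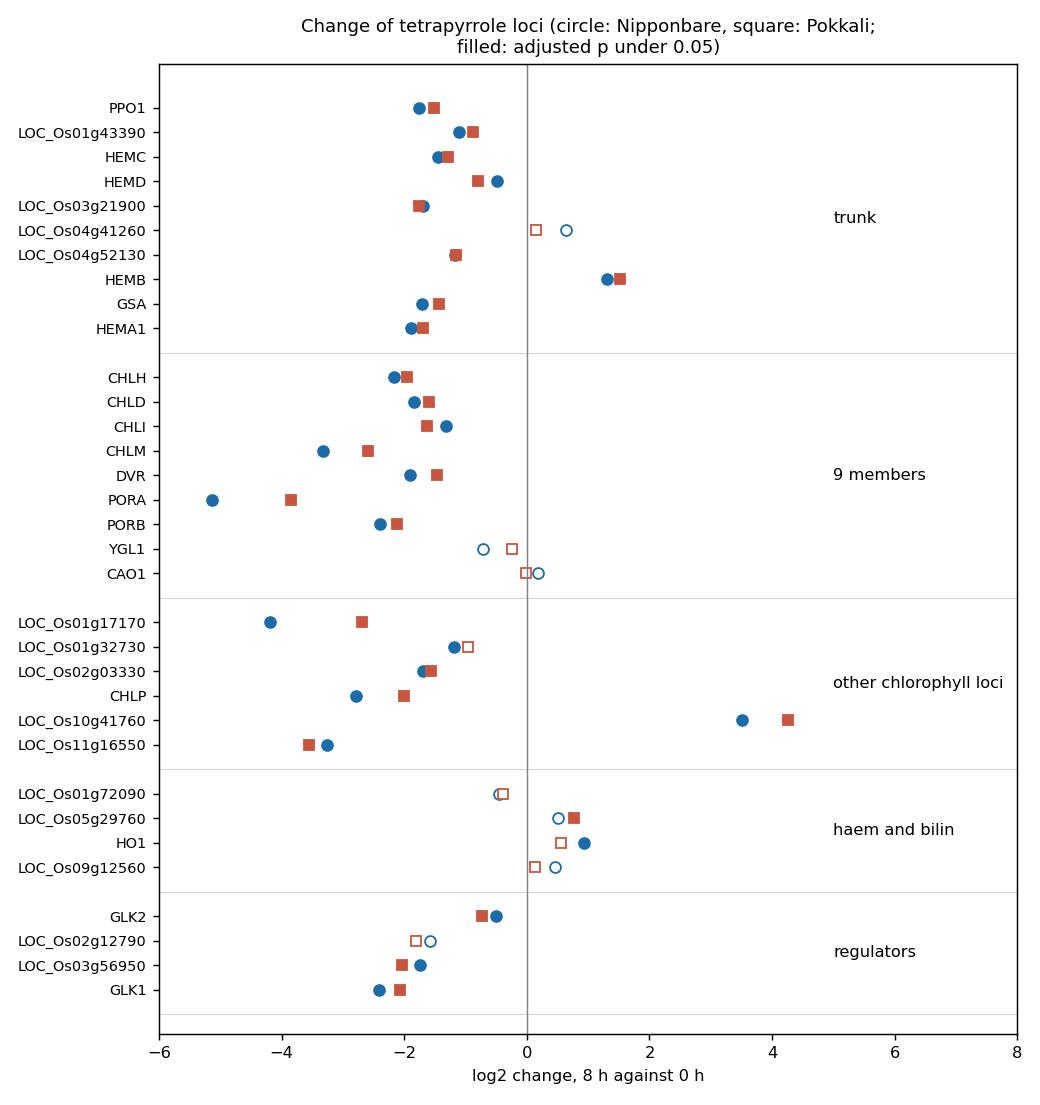
The log2 change from 0 h to 8 h (x axis) is drawn for the 9 enzymes and the 24 further loci (y axis, by list), with circles for Nipponbare, squares for Pokkali and filled symbols for an adjusted p under 0.05. Points of the trunk and of the chlorophyll branch lie mostly left of 0, HEMB and LOC_Os10g41760 lie to the right, and the haem and bilin loci lie within 1 log2 unit of 0.

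Markers of green tissue moved with the enzymes. All 6 loci taken as markers of green shoot tissue fell in Nipponbare and 5 of 6 fell in Pokkali, and all were well above background on every array. Their summed level, in multiples of the 75th percentile of the array, was 783 to 849 in Nipponbare at 0 h, 347 to 435 at 8 h, 765 to 860 in Pokkali at 0 h and 312 to 387 at 8 h. A single locus, LOC_Os01g41710, held 84.2% to 93.5% of this sum on every array. The mean log2 level of the 6 was 3.81 to 3.94 in Nipponbare at 0 h, 1.69 to 1.93 at 8 h, 3.6 to 3.79 in Pokkali at 0 h and 2.00 to 2.30 at 8 h. Of 6 root markers, 4 passed as lower in each line, and 3 and 2 with the normexp correction. Their sum was 10.1 to 20.5 and 0.950 to 0.988 in Nipponbare and 10.5 to 14.6 and 1.51 to 1.71 in Pokkali at the same times. Of the root markers, IRT1 was not well above background on any 8 h array, NRT2.1 on any Nipponbare array and NRT2.2 on any Pokkali array, so the Pokkali call of NRT2.2 (limma adjusted p = 0.0292) is no measured fall. LOC_Os02g44310 held 47.1% to 94.1% of the root sum. The root marker LSI2 was well above background on all 8 arrays and did not pass in either line. Its log2 change was -0.12 in Nipponbare (limma adjusted p = 0.765) and -0.06 in Pokkali (0.879). The sums of both marker lists were thus lower at 8 h, and the part of tissue composition in the change of the enzymes was not tested.

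Across the 8 arrays, the mean of the 9 enzymes, each centred on its own mean, was 0.99 and 0.91 in Nipponbare at 0 h, -0.86 and -1.38 at 8 h, 1.00 and 0.89 in Pokkali at 0 h and -0.53 and -1.02 at 8 h. The untreated arrays of both lines were close, and the lowest array was the second of treated Nipponbare. The loci whose log2 level was most like this mean were LOC_Os07g33630 (Pearson r = 0.9983 over 8 arrays; log2 changes -1.02 and -0.90) and LOC_Os08g33820 (r = 0.9981; -2.42 and -2.14). The r with this mean, to which each enzyme contributes, was above 0.9 for 7 of the 9 enzymes and was 0.82 for YGL1 and -0.22 for CAO1. It ranged from -0.62 to 0.99 in the trunk and from -0.85 to 0.98 in the other chlorophyll loci. In the haem and bilin branch it was -0.94 to 0.91, and among the transcription factors 0.59 to 0.91. The green shoot markers had 0.68 to 0.99 and the root markers 0.22 to 0.96. These values describe the 8 arrays, are set mostly by the step between times, and carry no test.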

How the data were processed

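Per the file headers, the authors read the one-colour (Cy3) arrays with Feature Extraction 10.7.1.1, on a design built from IRGSP5. The deposited values used are processed signal intensity, background-subtracted within an array and not scaled between arrays. The deposited flags for control, outlier, saturation and background are of the kind other. The deposited series table held equal values (100%). No spot of the 9 enzymes was saturated or flagged as an outlier.

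Here, control spots (1319) and outlier spots were left out, and log2 intensity was shifted to a 75th percentile of 0. Spots of a probe were averaged, and a probe was kept if it was well above background on 2 arrays of any group (47560 of 55078). Probes of a locus were averaged. The 4 groups entered 1 linear model (limma 3.58.1, R 4.3.3), with 4 residual and 2.36 prior degrees of freedom, and Benjamini-Hochberg adjustment over 45412 loci, two-sided. For 78 of these loci a flagged value was left out on at least 1 array. Precision is limited by the number of arrays: 2 against 2 arrays allow no exact permutation p below 0.333. Where a group was not well above background on either array, a bound is given, computed against the lowest signal among probes well above background on the same array.

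Members and lists were chosen with earlier results of these data known. All 9 enzymes are described. Of the other lists, up to 4 loci per list and comparison were eligible by smallest p among those that passed. HEMB in Nipponbare and HO1 in Pokkali, outside this rule, were added after their values were seen. LOC_Os01g72090 in both lines and LOC_Os05g29760 in Nipponbare did not pass with the processing above and are also outside this rule. Groups follow the sample titles; the description of 1 treated Nipponbare array gives another replicate number. Deviations of same-numbered arrays correlated with r of 0.536 between the lines at 0 h, 0.218 at 8 h and 0.0615 to 0.112 across times. The numbers were not taken as pairs. The line comparisons therefore do not account for what same-numbered arrays share within a time, except with the replicate block. Alternatives covered background correction, scaling, filters, probe choice, arrays left out and a replicate block. The normexp correction of the median signal and the fits of single probes were added after the data were seen.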

Additional observations from a re-analysis of the deposited data

How the results depend on the processing

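No value of the 9 enzymes that passed changed sign under any alternative that was run. The 7 enzymes lower at 8 h became 5 to 8 in Nipponbare and 5 to 7 in Pokkali. The CHLD call in Pokkali ended with no filter on dim probes (limma adjusted p = 0.0530) and with only the Pokkali arrays (0.0692), and without the same 0 h replicate of both lines (0.166 and 0.110; Nipponbare 0.109 and 0.0958). PORA dropped out where probes had to be well above background on all 8 arrays. With the replicate block, YGL1 passed in Nipponbare (limma adjusted p = 0.0230). Between lines, 2 enzymes then differed at 0 h (CHLM and PORB, limma adjusted p = 0.0498 and 0.0390) and 1 at 8 h (PORB, 0.0110), against 0 and 0 without it. The block changed no other call of the 9. Same-numbered arrays of the 2 lines varied together more within a time than across times. The count of enzymes that differ between lines thus depends on whether the number is taken as a pair. The count of enzymes called between lines at 8 h was 0 to 1 with arrays left out.

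Over all loci, unscaled signals moved the median log2 change from 0.05 to -0.17 in Nipponbare, from 0.08 to -0.07 in Pokkali, from 0.08 to -0.14 between lines at 0 h and from 0.09 to -0.06 at 8 h. The share of calls that were lower went from 46.7% to 66.8%, 44.0% to 57.5%, 60.0% to 76.0% and 52.1% to 65.0%, and loci called higher in Nipponbare from 6371 to 3835. Loci that differed between lines at 0 h went from 7628 to 4270 with only the arrays of that comparison. The 157 loci with a difference in change became 52 with no filter on dim probes, 49 with probes well above background on all 8 arrays and 30 with the replicate block. With arrays left out, loci called higher were 2097 to 7299 in Nipponbare and 2595 to 7262 in Pokkali, loci called lower 1981 to 6260 and 2102 to 5783, loci that differed between lines 4959 to 6407 at 0 h and 5118 to 11529 at 8 h, and differences in change 0 to 188. Fits without the same 0 h replicate of both lines take their spread from the 8 h pairs alone. A slide block could not be fitted with 1 slide, and the cause of these shifts was not tested.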

Other observations

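At 8 h the median distance between replicates was larger over the enzymes than over all loci, though not for every enzyme. CAO1 lay below the all-locus median in both treated lines, and CHLH and CHLI did in treated Pokkali. The median absolute difference between the 2 replicates, over the 9 enzymes, was 0.48 log2 units in treated Nipponbare and 0.41 in treated Pokkali, beside 0.18 and 0.20 over all loci. At 0 h it was 0.25 in Nipponbare and 0.41 in Pokkali, beside 0.27 and 0.29. The sign of the difference between replicates was the same in both lines for 8 of 9 enzymes at 0 h and for 8 of 9 at 8 h, where 70.5% and 61.2% of all loci shared it. CHLH was higher in the second than in the first replicate of all 4 groups, by 0.61, 0.19, 0.75 and 0.13 log2 units, while CHLD was lower in the second in all 4, by up to 1.25 in treated Pokkali. These differences were looked at after the values were seen and were not tested.

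Between the lines, 3 of the 24 further loci passed at 0 h, all higher in Pokkali, where 16.8% of all loci passed in either direction. At 8 h, 5 of the 24 passed as higher and 1 as lower, where 22% of all loci passed. Among the higher loci, LOC_Os01g17170 was at 0.54 and 0.65 in Pokkali and -1.57 and -1.16 in Nipponbare (limma adjusted p = 0.0113). That call ended without the first Nipponbare 8 h array (difference 1.75) and without either Pokkali 8 h array (2.01 and 1.90). The lower locus, LOC_Os04g41260, was at 0.69 and 0.53 in Pokkali and 1.40 and 1.77 in Nipponbare (limma adjusted p = 0.0317). Its call ended without any 1 of these 4 arrays. The 3 loci of 0 h, HEMB, GLK2 and LOC_Os11g16550, passed at both times. HEMB was 1.28 log2 units higher in Pokkali at 0 h (limma adjusted p = 0.0328) and 1.47 higher at 8 h (0.0166). At 0 h the HEMB call ended in 7 of the 8 fits without 1 array, all except that without the first Pokkali 0 h array. It also ended with only the 0 h arrays (limma adjusted p = 0.127), with the brightest probe of each locus (0.0762) and with unscaled signals (0.0513). At 8 h the HEMB call ended without any 1 of the 4 arrays compared (differences 1.38 to 1.57). GLK2 was 1.02 units higher in Pokkali at 0 h (limma adjusted p = 0.00502; 0.0596 without the second 0 h array of both lines) and 0.80 higher at 8 h (0.0119), where the call ended without either Nipponbare array (0.0738 and 0.0680) or the second Pokkali array (0.0743). LOC_Os11g16550 was 1.08 units higher in Pokkali at 0 h (limma adjusted p = 0.00573; 0.0722 and 0.0589 without the first or second 0 h array of both lines). It was 0.80 higher at 8 h (0.0158), where the call ended without either Nipponbare array (0.0727 and 0.0952), without the first Pokkali array (0.0797) and with unscaled signals (0.0650).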
